A study of Sus scrofa with 22 samples.

Results

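De novo fatty acid synthesis builds new fatty acids from acetyl-CoA in the cytosol. The 9 genes described here encode its enzymes and transcriptional regulators (FASN, ACACA, ACACB, ACLY, ME1, SREBF1, MLXIPL, ACSS2 and AACS). Their rows were found by gene name. All 9 were found among the 24358 genes listed in each library, and all 9 were among the 13626 genes that passed a filter on low counts.

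The tissue was jejunal mucosa, the inner layer of the middle part of the small intestine, from Ossabaw pigs, a breed that becomes obese and dyslipidaemic on rich diets. RNA sequencing libraries, each from a separate pig, formed 3 groups. The WD_S group (n = 7) ate a Western dietary pattern, labelled atherogenic, with atorvastatin, a drug that blocks cholesterol synthesis. This pattern was high in butter, sugar, white flour and cholesterol and low in fibre. The HHD_S group (n = 8) ate a heart healthy pattern, with plant oils, whole grain, fruit, vegetables and more fibre, together with atorvastatin. The HHD group (n = 7) ate the heart healthy pattern without the drug. The diets lasted 6 months and supplied 38% of energy as fat, 47% as carbohydrate and 15% as protein in all 3 groups. The daily dose of atorvastatin was 20 mg over the initial 3 months and 40 mg over the last 3. Pigs of HHD_S and HHD also received a fish oil capsule of 1000 mg, 3 times per week, which WD_S pigs did not, so diet and fish oil cannot be told apart. The study randomized 16 boars and 16 gilts, and the sex of a given pig is not in the labels. The Western pattern without the drug was not analysed here. The series text uses for that group an abbreviation that the sample titles give to WD_S, and the sample labels were followed.

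Fatty acid synthesis starts from citrate, which ACLY cleaves in the cytosol to acetyl-CoA, or from acetate, which ACSS2 activates. The acetyl-CoA carboxylases make malonyl-CoA from it, and FASN joins the units into palmitate with reducing power from NADPH. SREBF1, the gene of the factor SREBP1, and MLXIPL, the gene of the carbohydrate-sensing factor ChREBP, are the best known transcriptional activators of these enzymes. In the small intestine, absorptive enterocytes take up dietary fat and also make fatty acids for the triglyceride they export.

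Library totals were between 15.3 and 31.6 M unique exon reads, and values are given as read counts scaled to equal library size (CPM) after TMM scaling, which corrects for library composition. CPM are not adjusted for gene length, so levels are compared between pigs and not between genes. Read counts per library were lowest for ME1 (26 to 79) and ACACB (43 to 147) and reached 351 to 6635 for SREBF1. The names of the deposited files give a library pool, with 3 WD_S, 5 HHD_S and 5 HHD libraries in pool 3 and 4, 3 and 2 in pool 4. The tissue label was checked with enterocyte markers. Of 14 such markers 12 were found by name, and their summed level was 46302 to 89613 CPM in WD_S, 27208 to 90170 CPM in HHD_S and 37428 to 80323 CPM in HHD. The enterocyte score, the mean of the log2 levels of these genes centred per gene, was lowest in HHD_S 3 (-1.23) and HHD_S 8 (-0.79), and spanned -0.24 to 0.47 in WD_S and -0.57 to 0.63 in HHD. Leaving out HHD_S 3 and HHD_S 8 changed no call among the 9 genes, and fold changes without them are given for SREBF1, MLXIPL, ACACB and FASN.

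None of the 9 genes passed an adjusted p of 0.05 in any comparison. In WD_S against HHD_S, edgeR's quasi-likelihood test called 0 of the 9 genes, against 0% of all genes tested, and every one of the 9 had an adjusted p of 0.999. At an unadjusted p under 0.05 there were 2 of 9, against 2.92% of all genes. MLXIPL was the 1 gene higher (1.47% of all genes were higher) and AACS the 1 gene lower (1.45% of all genes were lower). With each pig left out in turn, AACS kept an unadjusted p under 0.05 in 9 of 22 fits and MLXIPL in 21 of 22. In HHD_S against HHD, 0 of 9 were called (background 0%), and 0 of 9 had an unadjusted p under 0.05 (background 1.81%, of which 1.07% higher and 0.741% lower). In WD_S against HHD, 0 of 9 were called (background 0.00734%, the gene ABCG1), and 1 of 9 was higher at an unadjusted p under 0.05 (MLXIPL) and 0 of 9 lower, against backgrounds of 1.95% and 1.46%, and 3.41% in both directions. DESeq2 and limma also called 0 of the 9 in each comparison. The last comparison shares its pigs with the other 2, so its values are not a separate line of evidence. The median log2 fold change over the 9 genes was 0.12 in WD_S against HHD_S, -0.01 in HHD_S against HHD and 0.07 in WD_S against HHD, beside medians over all genes of -0.01, 0.0088 and -0.0041. For 0 of the 9 genes did the groups fail to overlap in any comparison, where the share of all genes without overlap was 0.0147%, 0.0147% and 0.0661% in the same order.

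**Figure D1:**
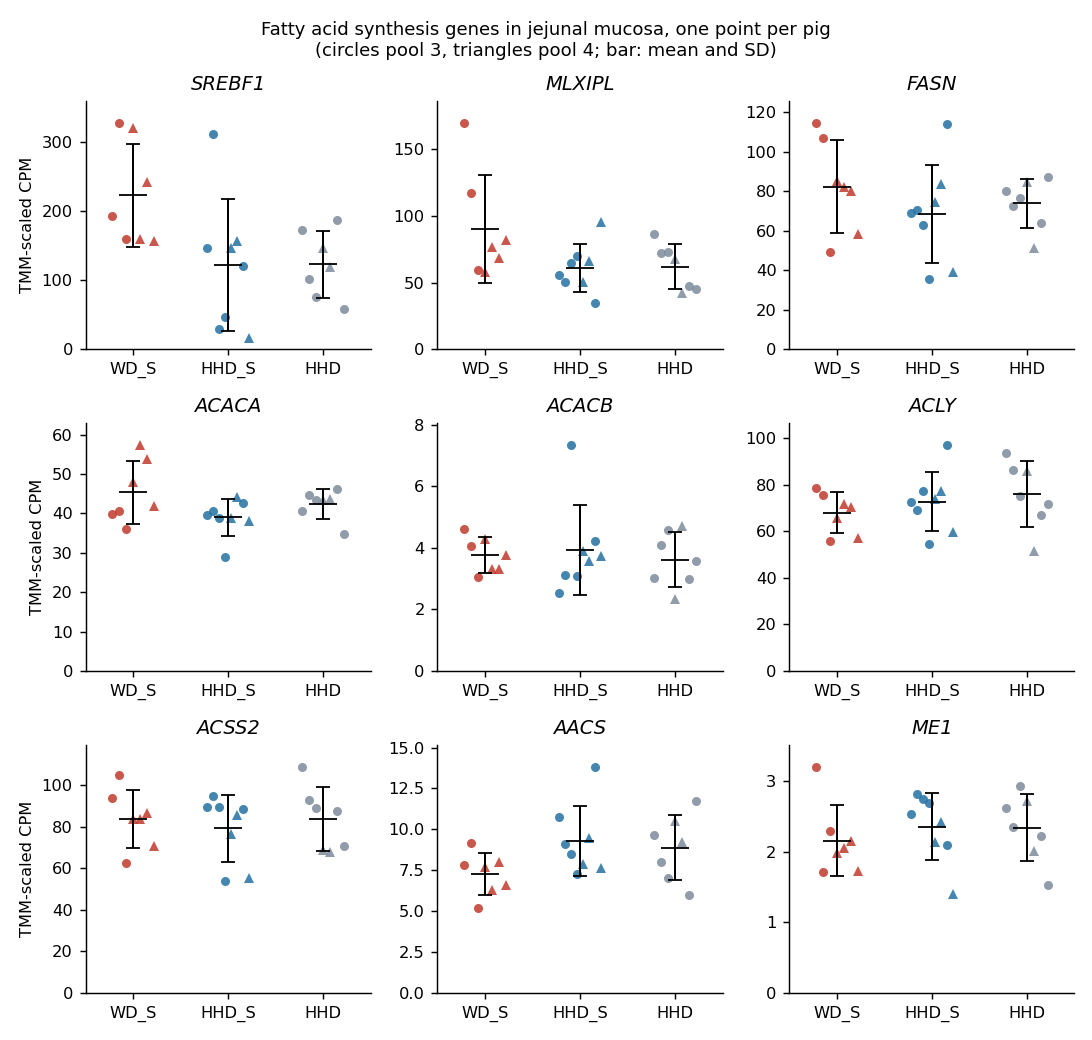
TMM-scaled CPM of the 9 fatty acid synthesis genes, with 1 point per pig, in WD_S (n = 7), HHD_S (n = 8) and HHD (n = 7). Circles are library pool 3, triangles pool 4, and bars show the mean and SD. The SREBF1 panel spans 16.4 to 327 CPM and the 2 highest MLXIPL points are WD_S pigs, while the groups overlap in every panel.

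SREBF1 (chr12:60733967-60750951, Sscrofa11.1, RefSeq gene span) encodes SREBP1, which activates genes of fatty acid synthesis. It stood at 157, 192 and 327 CPM in WD_S (lowest, median, highest), at 16.4, 133 and 311 CPM in HHD_S, and at 58.3, 119 and 187 CPM in HHD. All 7 WD_S pigs lay above the median of HHD_S and above that of HHD, but their range overlapped with both groups. The 3 lowest libraries of all 22 were HHD_S 8, HHD_S 3 (28.4 CPM) and HHD_S 4 (46.8 CPM). Group means were 222 ± 75.0 CPM in WD_S (SD, n = 7), 122 ± 95.5 in HHD_S (n = 8) and 123 ± 48.3 in HHD (n = 7). The log2 fold change was 0.89 in WD_S against HHD_S (SE 0.456, 95% interval -0.06 to 1.84, edgeR unadjusted p = 0.0651), with 0.80 within pool 3 and 1.04 within pool 4. It was 0.88 in WD_S against HHD (SE 0.475, interval -0.11 to 1.86, unadjusted p = 0.0794). In HHD_S against HHD the log2 fold change was -0.01, with a wide interval of -0.94 to 0.92. Without HHD_S 3 and HHD_S 8, a setting chosen after seeing the data, it was 0.53 in WD_S against HHD_S (unadjusted p = 0.147), 0.32 in HHD_S against HHD and 0.85 in WD_S against HHD (unadjusted p = 0.0204). The 2 pigs belong to neither WD_S nor HHD, and the fold change between these groups was 0.88 with them. The model shares 1 spread over the 3 groups, so the smaller p is not further evidence for that difference. Leaving out HHD_S 2, the highest library of its group, gave 1.24 in WD_S against HHD_S.

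MLXIPL (chr3:10898675-10934257) encodes ChREBP, which activates lipogenic and glycolytic genes when carbohydrate is plentiful. Its level was 57.9, 76.9 and 170 CPM in WD_S (lowest, median, highest), 34.5, 60.2 and 95.3 CPM in HHD_S, and 42.5, 67.6 and 86.2 CPM in HHD. The high end was made by WD_S 1 and WD_S 2 (117 CPM), the only pigs above every HHD_S and HHD pig, and the rest of WD_S overlapped with the other groups. Group means were 90.3 ± 40.3 CPM in WD_S (SD, n = 7), 60.9 ± 17.9 in HHD_S (n = 8) and 62.0 ± 16.8 in HHD (n = 7). The log2 fold change was 0.57 in WD_S against HHD_S (SE 0.230, interval 0.09 to 1.05, edgeR unadjusted p = 0.0210) and 0.58 in WD_S against HHD (SE 0.241, interval 0.07 to 1.08, unadjusted p = 0.0262). Between HHD_S and HHD it was 0.0049 (interval -0.48 to 0.49). Within pool 3 the first of these differences was 1.09 and within pool 4 it was 0.01, and whether the pools differ was not tested. Without WD_S 1 it was 0.34 in WD_S against HHD_S and 0.32 in WD_S against HHD. Without HHD_S 3 and HHD_S 8 it was 0.77 in WD_S against HHD_S (unadjusted p = 0.00398) and -0.16 in HHD_S against HHD.

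**Figure D2:**
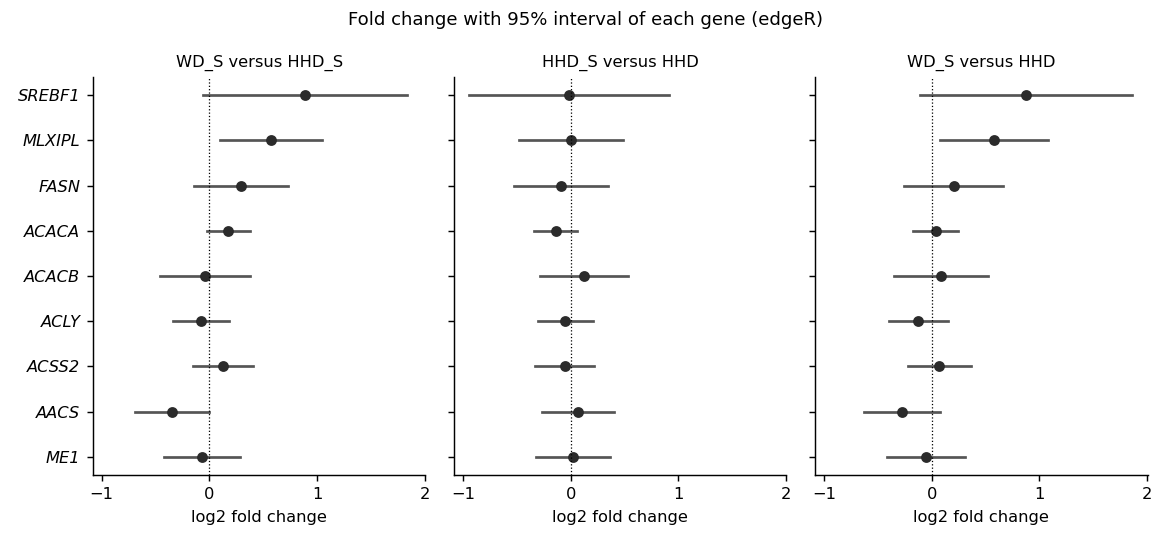
Log2 fold change (point) and its 95% interval (line) from edgeR for each of the 9 genes in the 3 comparisons, with the first-named group over the second. Intervals of MLXIPL (0.09 to 1.05) and AACS (-0.69 to -0.0047) leave out 0 before adjustment in WD_S versus HHD_S, and the SREBF1 intervals are the widest in all 3 panels.

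ACLY, ACSS2 and AACS supply cytosolic acetyl units. ACLY (chr12:20796678-20841301), ATP citrate lyase, stood at 56.0, 70.6 and 78.8 CPM in WD_S (lowest, median, highest), 54.7, 73.3 and 97.0 CPM in HHD_S, and 51.6, 75.0 and 93.5 CPM in HHD. The 3 ranges overlapped nearly throughout, and no WD_S pig reached the highest values of the other groups. Its log2 fold change was -0.08 in WD_S against HHD_S (interval -0.34 to 0.18), -0.05 in HHD_S against HHD (-0.31 to 0.21) and -0.12 in WD_S against HHD (-0.40 to 0.15). ACSS2 (chr17:38260152-38315764), the cytosolic acetyl-CoA synthetase, stood at 62.7, 83.6 and 105 CPM in WD_S, 53.9, 87.2 and 94.9 CPM in HHD_S, and 68.0, 87.6 and 109 CPM in HHD. Low values came from HHD_S 4 and HHD_S 8 (55.5 CPM), and the groups overlapped. The log2 fold change of ACSS2 was 0.12 in WD_S against HHD_S (interval -0.15 to 0.40), -0.05 in HHD_S against HHD (-0.33 to 0.22) and 0.07 in WD_S against HHD (-0.22 to 0.36).

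AACS (chr14:28109845-28169261), acetoacetyl-CoA synthetase, feeds ketone bodies into lipid synthesis. It stood at 5.22, 7.71 and 9.19 CPM in WD_S (lowest, median, highest), 7.25, 8.80 and 13.8 CPM in HHD_S, and 6.01, 9.25 and 11.8 CPM in HHD. Only 1 of 7 WD_S pigs lay above the HHD_S median and 0 of 7 above the HHD median, although the ranges overlapped. The log2 fold change was -0.35 in WD_S against HHD_S (SE 0.165, interval -0.69 to -0.0047, edgeR unadjusted p = 0.0472), with -0.40 within pool 3 and -0.22 within pool 4. It was -0.28 in WD_S against HHD (interval -0.63 to 0.08) and 0.07 in HHD_S against HHD (interval -0.26 to 0.40).

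Both acetyl-CoA carboxylases were measured. ACACA (chr12:38580916-38875067), the cytosolic enzyme that commits acetyl-CoA to synthesis, stood at 36.1, 41.8 and 57.3 CPM in WD_S (lowest, median, highest), 28.9, 39.3 and 44.3 CPM in HHD_S, and 34.9, 43.5 and 46.1 CPM in HHD. The 3 highest libraries were WD_S 5, WD_S 6 (53.9 CPM) and WD_S 4 (48.0 CPM), while the other WD_S pigs lay within the range of HHD_S and HHD. Its log2 fold change was 0.18 in WD_S against HHD_S (SE 0.0970, interval -0.03 to 0.38, edgeR unadjusted p = 0.0837), -0.14 in HHD_S against HHD (interval -0.34 to 0.06) and 0.04 in WD_S against HHD (interval -0.17 to 0.25). ACACB (chr14:41621574-41739916), the form at the mitochondrial membrane whose product restrains fatty acid oxidation, stood at 3.05, 3.78 and 4.61 CPM in WD_S, 2.54, 3.65 and 7.33 CPM in HHD_S, and 2.34, 3.56 and 4.71 CPM in HHD. HHD_S 3 alone held the high end, and the groups otherwise overlapped. The log2 fold change of ACACB was -0.04 in WD_S against HHD_S (interval -0.46 to 0.37), 0.13 in HHD_S against HHD (-0.28 to 0.54) and 0.09 in WD_S against HHD (-0.35 to 0.52). Without HHD_S 3 and HHD_S 8 its value was 0.16 in WD_S against HHD_S and -0.10 in HHD_S against HHD, so both turned in sign.

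FASN (chr12:922405-937560), the synthase that assembles palmitate, stood at 49.5, 82.2 and 114 CPM in WD_S (lowest, median, highest), 35.5, 70.0 and 114 CPM in HHD_S, and 51.5, 76.8 and 87.4 CPM in HHD. The low end was HHD_S 4 and HHD_S 8 (39.0 CPM), the high end was WD_S 1, HHD_S 7 and WD_S 2 (107 CPM), and the groups overlapped. Its log2 fold change was 0.29 in WD_S against HHD_S (SE 0.210, interval -0.14 to 0.73, edgeR unadjusted p = 0.180), -0.09 in HHD_S against HHD (interval -0.52 to 0.34) and 0.20 in WD_S against HHD (interval -0.25 to 0.66). Without HHD_S 3 and HHD_S 8 it was 0.17 in WD_S against HHD_S and 0.02 in HHD_S against HHD. ME1 (chr1:82799878-82989895), the cytosolic malic enzyme that supplies NADPH, stood at 1.71, 2.05 and 3.19 CPM in WD_S, 1.40, 2.48 and 2.81 CPM in HHD_S, and 1.53, 2.35 and 2.93 CPM in HHD. The highest library, WD_S 1, stood above the other 6 pigs of its group, which overlapped with HHD_S and HHD. The log2 fold change of ME1 was -0.07 in WD_S against HHD_S (interval -0.43 to 0.28), 0.02 in HHD_S against HHD (-0.33 to 0.37) and -0.05 in WD_S against HHD (-0.42 to 0.31).

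The genes differed widely in how much they varied between pigs. SREBF1 spanned 19.9-fold over the 22 pigs, MLXIPL 4.92-fold and FASN 3.23-fold. ACACA and ACLY, by contrast, spanned 1.98-fold and 1.88-fold. After subtraction of group and pool effects, the SD of SREBF1 between pigs was 1.01 on the log2 scale, larger than that of 98.3% of all genes tested and of 99.0% of the 1000 genes nearest to it in level. ACACA had an SD of 0.176, larger than that of 13.6% of all genes, and the median over all genes was 0.298. The other 7 genes lay between these, with SDs of 0.246 (ACLY), 0.268 (ACSS2), 0.292 (ME1), 0.310 (AACS), 0.367 (ACACB), 0.448 (FASN) and 0.476 (MLXIPL).

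**Figure D3:**
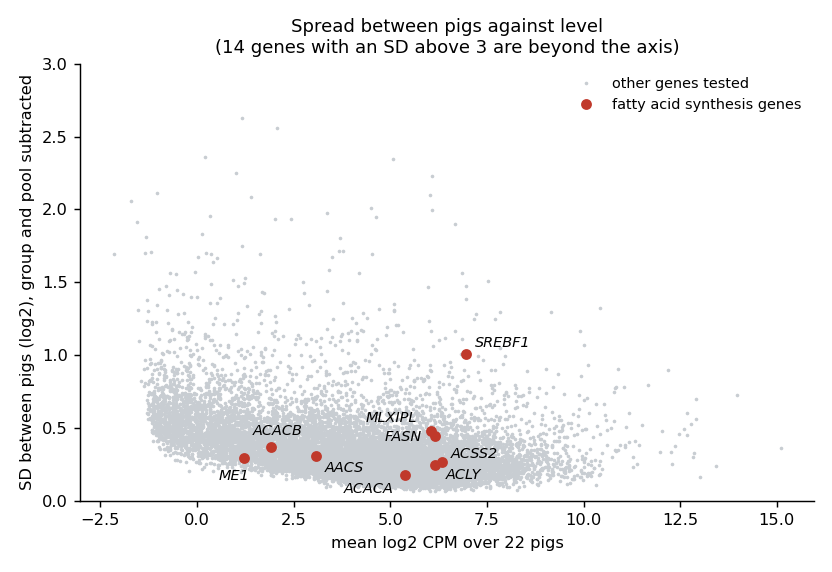
SD between pigs of log2 CPM, after subtraction of group and pool, against the mean log2 CPM over 22 pigs, for the 9 fatty acid synthesis genes (red) and all other genes tested (grey). SREBF1, with an SD of 1.01, stands above most genes of its level, while ACACA (0.176) has the smallest SD of the 9. The axis leaves out 14 genes with an SD above 3.

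Some of the enzymes moved together from pig to pig within groups. Correlations were computed over 22 pigs after subtraction of group and pool, for all 36 pairs of the 9 genes, with two-sided permutation tests adjusted over the 36 pairs. The shuffles treated the 22 values left after subtraction as free to move between groups and pools, although only 18 degrees of freedom remained. The p values therefore tend to be too small, which matters most for pairs near the threshold. Shuffles within groups were not run. Pearson's r passed in 8 pairs, all positive, and 7 of the 8 were among the 10 pairs formed by FASN, ACLY, ACSS2, ACACA and AACS. This grouping was not set beforehand and leaves out the enzyme genes ACACB and ME1, which passed with none. The count of 7 therefore describes which pairs passed and is not a test of the grouping. The median r over the 36 pairs was 0.223. Such correlation was not confined to these genes. Of 11089 named genes outside the 9, 1302 had a positive r with FASN that passed, and 945 with SREBF1. Those p values were adjusted over the 11089 genes and not over 36 pairs. The closest pair was FASN and ACLY (r = 0.85, permutation p = 1e-05, the smallest these permutations can give, adjusted p = 0.00036; rho = 0.78, adjusted p = 0.0036). That r was 0.777 without the 2 pigs farthest from the FASN median, 0.854 within pool 3 and 0.863 within pool 4. ACSS2, which makes acetyl-CoA from acetate, was correlated with ACACA (r = 0.746, adjusted permutation p = 0.00108; rho = 0.619, adjusted p = 0.0197) and with ACLY (r = 0.714, adjusted p = 0.00189; rho = 0.639, adjusted p = 0.0193). Without the 2 farthest pigs these were 0.687 and 0.647, and within pools 3 and 4 they were 0.794 and 0.652 for ACACA, and 0.784 and 0.575 for ACLY. FASN was correlated with AACS (r = 0.700, adjusted permutation p = 0.00209; rho = 0.671, adjusted p = 0.0160; 0.612 without the 2 farthest pigs, 0.830 in pool 3 and 0.612 in pool 4).

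Of the other 4 pairs, 3 missed the threshold in rank order and 1 missed it under another scaling. FASN with ACSS2 had r = 0.744 (adjusted permutation p = 0.00144) but rho = 0.526 (adjusted p = 0.0754), with r = 0.513 without the 2 farthest pigs, 0.727 in pool 3 and 0.880 in pool 4. ACLY with AACS had r = 0.541 and rho = 0.511 (adjusted permutation p = 0.0470 and 0.0754), and ACACA with ACLY had r = 0.533 and rho = 0.466 (adjusted permutation p = 0.0470 and 0.124). Without the 2 farthest pigs these r were 0.615 and 0.400, and within pools 3 and 4 they were 0.711 and 0.514 for ACLY with AACS, and 0.602 and 0.478 for ACACA with ACLY. SREBF1 passed only with ACSS2 (r = 0.594, adjusted permutation p = 0.0221; rho = 0.616, adjusted p = 0.0197; 0.674 without the 2 farthest pigs, 0.540 in pool 3 and 0.905 in pool 4). With total counts in place of TMM, that r was 0.435 (adjusted permutation p = 0.134). The value of SREBF1 with FASN, the textbook target of SREBP1, was r = 0.507 and rho = 0.509, which missed the threshold (adjusted permutation p = 0.0580 and 0.0754), with 0.478 without the 2 farthest pigs, 0.332 in pool 3 and 0.849 in pool 4. Against the mean of the other 8 genes, r of SREBF1 was 0.291, with 0.138 in pool 3 and 0.747 in pool 4. MLXIPL had values of -0.31 to 0.22 with the other genes and passed with none of them, and ACACB and ME1 also passed with none.

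**Figure D4:**
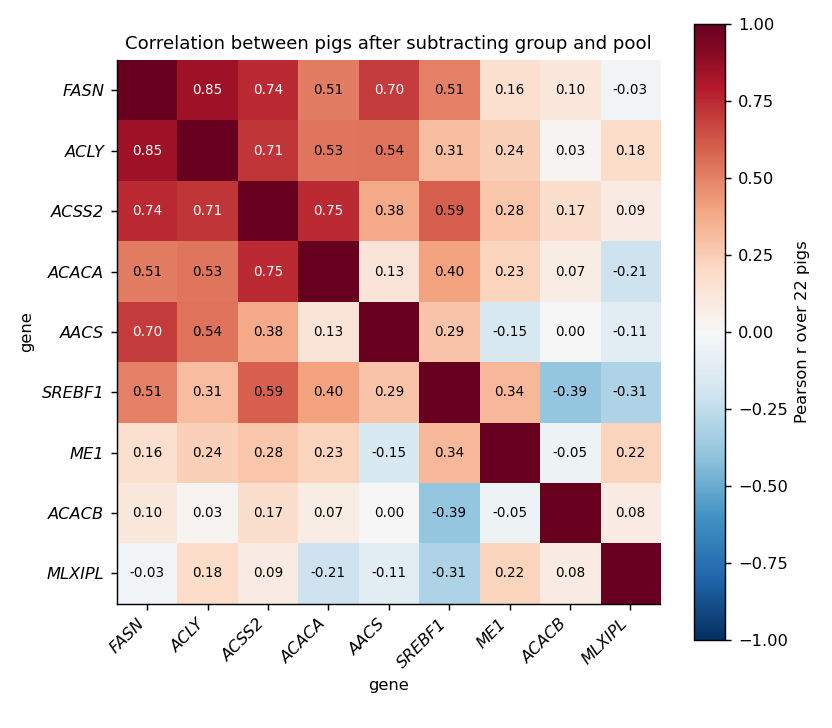
Pearson r over 22 pigs between each pair of the 9 genes, on log2 CPM after subtraction of group and pool (colour scale -1 to 1). FASN, ACLY and ACSS2 have r of 0.714 to 0.85 with each other, ACACA with AACS stands at 0.128 and SREBF1 with ACSS2 at 0.594, and the MLXIPL row stays between -0.31 and 0.22.

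Because 2 genes of 1 library share its scaling, the log2 ratio of their counts was also compared between groups, for the 36 pairs in the 3 comparisons (108 exact permutation tests, two-sided, adjusted over the 108). These tests were added after seeing the data. They split the pigs freely over both pools, with no term for pool. None passed an adjusted p of 0.05, and the smallest adjusted p was 0.0629. At an unadjusted exact p under 0.05 there were 12 of 36 ratios in WD_S against HHD_S, 0 of 36 in HHD_S against HHD and 12 of 36 in WD_S against HHD. Over all 4560 pairs of the 96 genes tested in the set and its pathway lists, the shares were 14.2%, 0.877% and 17.7% in the same order, and ratios that share a gene are not independent. The 36 pairs are among the 4560, and the lists were chosen with earlier results known. These shares are therefore not rates for all genes. The ratio of ACSS2 to AACS was 3.41 to 3.73 in WD_S and 2.68 to 3.40 in HHD_S on the log2 scale, the 1 of 36 ratios without overlap. Of the 4560 pairs, 2 had no overlap (0.0439%), this ratio included. The means were 3.53 ± 0.113 in WD_S (SD, n = 7) and 3.09 ± 0.262 in HHD_S (SD, n = 8), a difference of 0.44 (exact permutation p = 0.000932), with 0.48 within pool 3 and 0.40 within pool 4. In WD_S against HHD the same ratio overlapped (2.59 to 3.87 in HHD) and differed by 0.28 (exact permutation p = 0.180). For FASN to AACS, the ratio averaged 3.47 ± 0.260 in WD_S (SD, n = 7) and 2.82 ± 0.352 in HHD_S (SD, n = 8), a difference of 0.64 (exact permutation p = 0.00124), and in WD_S against HHD the difference was 0.40 (exact permutation p = 0.0245). The counterpart in WD_S against HHD was ACLY to MLXIPL, which averaged -0.32 ± 0.455 in WD_S and 0.31 ± 0.212 in HHD (SD, n = 7 each), a difference of -0.63 (exact permutation p = 0.00233), and in WD_S against HHD_S the difference was -0.61 (exact permutation p = 0.0533). Within pools 3 and 4, the ACLY to MLXIPL difference was -0.92 and -0.41 in WD_S against HHD, and -1.05 and -0.13 in WD_S against HHD_S. Leaving out 1 pig gave adjusted p values under 0.05 in 3 of 22 fits, with up to 9 ratios past the threshold without HHD_S 2, 7 without HHD 6 and 1 without WD_S 2.

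Some of the genes varied with scores of marker lists for cells of the mucosa. Each gene was set against the scores of 12 marker lists (108 relations, adjusted permutation p over the 108, group and pool subtracted), and 20 relations passed. The share that passes for other genes was not computed. ACACB ran against the enterocyte score (r = -0.816, adjusted permutation p = 0.00216; rho = -0.717, adjusted p = 0.0186; -0.911 in pool 3 and -0.561 in pool 4, and -0.768 without the 2 farthest pigs). SREBF1 ran with it (r = 0.724, adjusted permutation p = 0.00297; rho = 0.659, adjusted p = 0.0186; 0.727 in pool 3 and 0.726 in pool 4, and 0.565 without the 2 farthest pigs). HHD_S 4 was low in SREBF1 at an enterocyte score of 0.21, unlike HHD_S 3 and HHD_S 8. ME1 ran with the fibroblast score (r = 0.742, adjusted permutation p = 0.00297; rho = 0.709; 0.687 in pool 3 and 0.907 in pool 4, and 0.545 without the 2 farthest pigs). ME1 also ran with the smooth muscle score (r = 0.702, adjusted permutation p = 0.00498, and rho = 0.652, adjusted p = 0.0186). That r was 0.630 in pool 3, 0.883 in pool 4 and 0.450 without the 2 farthest pigs. In bulk mucosa, fewer cells of a type and less RNA per cell cannot be told apart, and the part of cell makeup in the group values above was not tested.

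FASN, ACLY and ACSS2 ran with the goblet cell score, which follows mucus-secreting cells (r = 0.706, 0.708 and 0.648, adjusted permutation p = 0.00378, 0.00463 and 0.00914). All 3 kept a value of at least 0.622 within either pool, and rho was 0.691, 0.660 and 0.670. They also passed with the endothelial score (r = 0.610, 0.659 and 0.733, adjusted permutation p = 0.0174, 0.00702 and 0.00297), with 0.588, 0.622 and 0.658 without the 2 farthest pigs, but rho of 0.461, 0.562 and 0.539 missed the threshold. ACSS2 passed with the smooth muscle and fibroblast scores too (r = 0.701 and 0.678), FASN and ACLY with the macrophage and dendritic cell score (r = 0.589 and 0.633), and ACACA with the endothelial score (r = 0.587). In rank order all of these missed the threshold (adjusted permutation p of rho = 0.0632, 0.0777, 0.131, 0.0942 and 0.170 in the same order). FASN, ACLY and ACSS2 also passed with the crypt stem and dividing cell score (r = 0.696, 0.677 and 0.713), but rho of 0.460, 0.546 and 0.563 missed the threshold. These r were 0.857, 0.853 and 0.818 in pool 3 and 0.0621, 0.173 and 0.0834 in pool 4. Without the 2 farthest pigs they were 0.377, 0.482 and 0.306. Whether the pools differ was not tested. AACS passed with the crypt stem and dividing cell score alone (r = 0.554, adjusted permutation p = 0.0366), but its rho of 0.442 missed the threshold. That r was 0.649 in pool 3, 0.108 in pool 4 and 0.368 without the 2 farthest pigs. MLXIPL passed with 0 of 12 scores. SREBF1 also passed with the adipocyte list (r = 0.715, adjusted permutation p = 0.00324; rho = 0.625; 0.841 in pool 3 and 0.554 in pool 4). Of the 10 genes of that list 5 entered the score. ADIPOQ reached 0.150 CPM, PLIN1 0.654 CPM and LEP 0.0379 CPM, while the medians were 403 CPM for PCK1, which enterocytes also express, 50.8 CPM for CIDEC, 13.2 CPM for LIPE and 2.54 CPM for FABP4. The part of adipocytes in this relation was not tested.

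**Figure D5:**
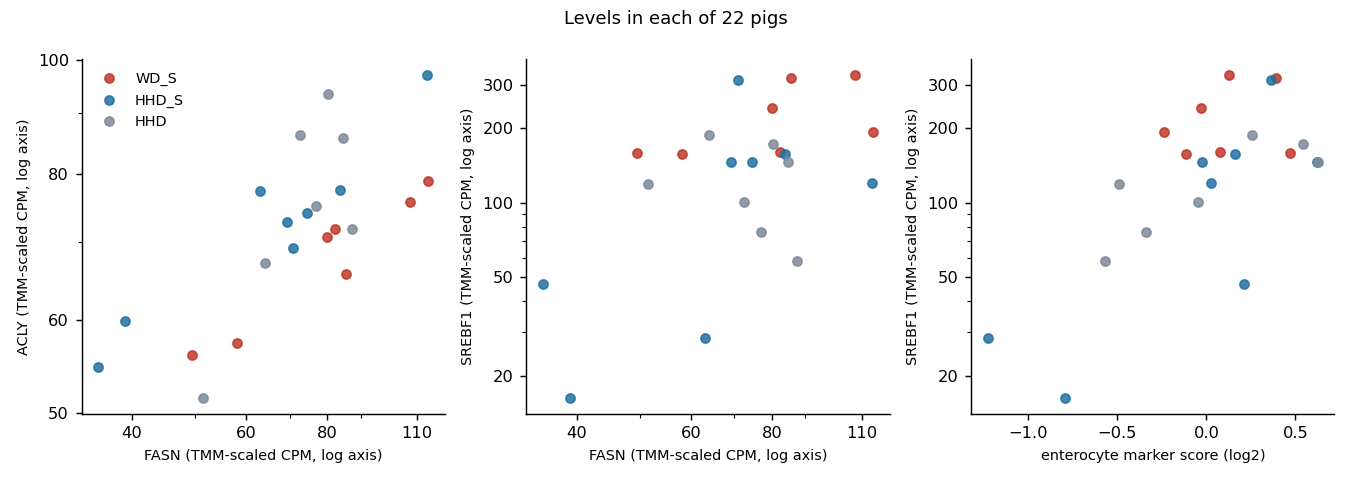
Level of ACLY against FASN, of SREBF1 against FASN, and of SREBF1 against the enterocyte marker score (mean log2 level of 12 genes, centred per gene), with 1 point per pig of WD_S, HHD_S and HHD; CPM axes are logarithmic. ACLY climbs with FASN across pigs (r = 0.85 after subtraction of group and pool), and the lowest SREBF1 points are HHD_S pigs, of which HHD_S 3 and HHD_S 8 also have the lowest enterocyte scores.

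The genes whose pattern was most like that of FASN, by Pearson's r over 22 pigs after subtraction of group and pool, were found among 11089 named genes whose mean log2 CPM reached 1. They were H6PD (r = 0.909, rho = 0.796), DPH2 (r = 0.909, rho = 0.951), PDIA6 (r = 0.900, rho = 0.825), GANAB (r = 0.896, rho = 0.886) and NSUN2 (r = 0.882, rho = 0.739). H6PD makes NADPH inside the endoplasmic reticulum, where PDIA6 and GANAB take part in protein folding. For SREBF1 they were ACE (r = 0.911, rho = 0.894), ACADS (r = 0.891, rho = 0.877), SLC25A39 (r = 0.889, rho = 0.839), AAMP (r = 0.884, rho = 0.889) and ETHE1 (r = 0.877, rho = 0.820). ACE is a peptidase of the enterocyte brush border, and ACADS is a mitochondrial enzyme of fatty acid oxidation. The permutation p of r was 1e-05 for all 10, the smallest these permutations can give, and the p adjusted over the ranked genes was 0.000521 for the FASN genes and 0.00101 for the SREBF1 genes. Without the 2 farthest pigs r was 0.802 to 0.856 with FASN and 0.776 to 0.864 with SREBF1. Over the same genes, 1302 had a positive r that passed an adjusted p of 0.05 with FASN and 945 with SREBF1, so the 5 named are the extreme of many. None of the 10 genes stands in the pathway or marker lists used here.

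Genes that surround the pathway were followed in 8 lists of 91 genes, of which 87 were tested. The others were too low in count or were not matched by name. Of the 87, edgeR called 0 in each comparison, and 5 were higher and 3 lower at an unadjusted p under 0.05 in WD_S against HHD_S (all genes: 1.47% and 1.45%), 0 and 2 in HHD_S against HHD (1.07% and 0.741%), and 5 and 4 in WD_S against HHD (1.95% and 1.46%). Of the 8 lists, targets of the carbohydrate response had the largest median in both comparisons with WD_S. In WD_S against HHD_S, 9 of 12 had positive values with a median log2 fold change of 0.19, in HHD_S against HHD 6 of 12 with a median of -0.0029, and in WD_S against HHD 10 of 12 with a median of 0.27. BHLHE40, a transcriptional repressor tied to the circadian clock, stood at 119 ± 20.3 CPM in WD_S, 87.3 ± 21.0 in HHD_S and 86.4 ± 19.3 in HHD (SD, n = 7, 8 and 7, as for the other genes of the lists), with log2 fold changes of 0.46 (WD_S against HHD_S, edgeR unadjusted p = 0.00937) and 0.48 (WD_S against HHD, unadjusted p = 0.00906). SLC2A5, the fructose transporter of the brush border, had log2 fold changes of 0.65 in WD_S against HHD (unadjusted p = 0.000982) and 0.29 in HHD_S against HHD (unadjusted p = 0.0893). G6PC, the glucose-6-phosphatase subunit, had 1.43 in WD_S against HHD_S (unadjusted p = 0.00133), and ARRDC4, an arrestin-like relative of TXNIP, -0.19 in HHD_S against HHD (unadjusted p = 0.136).

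Among regulators of lipogenesis, the median log2 fold change was 0.02 in WD_S against HHD_S over 17 genes, 0.01 in HHD_S against HHD and 0.04 in WD_S against HHD. MID1IP1, which helps acetyl-CoA carboxylase form active filaments, stood at 21.5 ± 4.50 CPM in WD_S, 16.1 ± 1.55 in HHD_S and 16.2 ± 2.81 in HHD. Its log2 fold change was 0.38 in WD_S against HHD_S (SE 0.120, edgeR unadjusted p = 0.00437) and 0.35 in WD_S against HHD (unadjusted p = 0.0113). MBTPS2, a protease that releases SREBP factors, had -0.22 in WD_S against HHD_S (unadjusted p = 0.0379), and SREBF2, the sterol-responsive relative of SREBF1, had -0.33 in WD_S against HHD (unadjusted p = 0.0962). TRIB3, a stress-induced pseudokinase, had -0.60, and INSIG2, which retains SREBP in the endoplasmic reticulum, 0.19 in HHD_S against HHD (unadjusted p = 0.131 and 0.213). In the list of carboxylase and synthase control, which holds the AMP-activated kinase subunits, the medians were -0.0089, 0.04 and 0.03 in WD_S against HHD_S, HHD_S against HHD and WD_S against HHD over 11 genes. HLCS, which attaches biotin to the carboxylases, had -0.18 and PRKAA2, a catalytic kinase subunit, -0.28 in WD_S against HHD_S (unadjusted p = 0.0702 and 0.145). In WD_S against HHD they had -0.16 and -0.28 (unadjusted p = 0.125 and 0.156). PRKAG2, a regulatory subunit of the kinase, had 0.13 and AASDHPPT, which attaches the carrier group to FASN, 0.11 in HHD_S against HHD (unadjusted p = 0.219 and 0.276).

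Genes that supply substrate showed small values. The citrate and pyruvate list had medians of 0.0073, 0.0088 and 0.01 over 12 genes in WD_S against HHD_S, HHD_S against HHD and WD_S against HHD. SLC16A1, a monocarboxylate transporter, stood at 40.4 ± 8.81 CPM in WD_S, 30.7 ± 7.08 in HHD_S and 39.4 ± 14.7 in HHD, with a log2 fold change of 0.33 in WD_S against HHD_S (edgeR unadjusted p = 0.0571) and -0.36 in HHD_S against HHD (unadjusted p = 0.0365). CS, citrate synthase, had 0.21 in WD_S against HHD_S and 0.24 in WD_S against HHD (unadjusted p = 0.133 and 0.103), MDH2, a malate dehydrogenase, 0.14 in WD_S against HHD (unadjusted p = 0.331), and MPC1, of the pyruvate carrier, 0.12 in HHD_S against HHD (unadjusted p = 0.268). Of 10 NADPH-supplying genes, 9 had positive values in WD_S against HHD_S with a median of 0.13, 3 in HHD_S against HHD with a median of -0.05, and 8 in WD_S against HHD with a median of 0.05. TKT, transketolase, stood at 199 ± 20.9 CPM in WD_S, 176 ± 43.7 in HHD_S and 196 ± 18.7 in HHD, and PGLS, of the pentose phosphate pathway, at 63.3 ± 9.58, 58.3 ± 9.45 and 62.1 ± 8.09 CPM in the same order of groups. IDH2 and TALDO1, further enzymes of NADPH and pentose metabolism, had 0.15 and 0.10 in WD_S against HHD (unadjusted p = 0.308 and 0.388).

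The ketone body list had medians of 0.07, 0.0095 and -0.01 over 9 genes in WD_S against HHD_S, HHD_S against HHD and WD_S against HHD. ACAT2, a thiolase that makes acetoacetyl-CoA in the cytosol, stood at 3.97 ± 0.681 CPM in WD_S and 6.15 ± 1.52 in HHD, with a log2 fold change of -0.62 (edgeR unadjusted p = 0.0185). ACSS1, the mitochondrial acetyl-CoA synthetase, stood at 276 ± 46.7 CPM in WD_S and 229 ± 44.9 in HHD, a log2 fold change of 0.35 (unadjusted p = 0.00877), and had 0.21 in HHD_S against HHD (unadjusted p = 0.0782). OXCT1, which activates acetoacetate in mitochondria, had 0.20 in WD_S against HHD_S (unadjusted p = 0.0529), and SLC16A6, of the monocarboxylate transporter family, had -0.67 with 0.851 ± 0.404 CPM in WD_S and 1.35 ± 0.567 CPM in HHD_S (unadjusted p = 0.0413). ACSS3 had -0.27 in HHD_S against HHD (unadjusted p = 0.0473). In the mitochondrial synthesis list of 6 tested genes the medians were -0.09, 0.03 and -0.10, with CBR4, a reductase of that pathway, at -0.55 in WD_S against HHD_S (unadjusted p = 0.0548) and -0.43 in WD_S against HHD (unadjusted p = 0.139). OXSM, its condensing enzyme, had -0.19 in WD_S against HHD_S and 0.07 in HHD_S against HHD (unadjusted p = 0.0953 and 0.513), MCAT, its malonyl transferase, -0.08 in HHD_S against HHD (unadjusted p = 0.509) and NDUFAB1, its carrier protein, -0.17 in WD_S against HHD (unadjusted p = 0.223). For elongation and desaturation the medians were -0.01, -0.08 and -0.13 over 10 genes, with SCD at 1.40 and FADS1 at -0.48 in WD_S against HHD_S (unadjusted p = 0.00344 and 0.00308), and 1.71 and -0.73 in WD_S against HHD (unadjusted p = 0.00093 and 6.08e-05; adjusted p of FADS1 0.414). FADS1 was called in WD_S against HHD by DESeq2 and by edgeR with a term for late animal numbers (the 5 pigs numbered from 2356 on). In HHD_S against HHD, FADS1 had -0.25 and ELOVL1, an elongase of very long chains, -0.30 (unadjusted p = 0.0826 and 0.197).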

How the data were processed

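The authors deposited read counts, headed as unique exon reads, for each gene of each library, per the file headers. Single reads of 150 bases came from RNA with an RQI over 8 and were mapped in a CLC workbench to the annotated genome Sscrofa11.1, per the labels' protocols. Its version, settings and use of strand are not given in the sources. Reads with several equally good positions do not enter unique counts.

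Libraries were scaled by TMM after filterByExpr (minimum count 10). edgeR 4.0.16 (R 4.3.3) fitted a robust quasi-likelihood model of the 3 groups plus an additive term for library pool, read from the deposited files' names (13 libraries in pool 3, 9 in pool 4). P values were adjusted by Benjamini-Hochberg over 13626 genes. The fit left 18 residual degrees of freedom, and the biological coefficient of variation was 25.9%. The standard error is the size of the log2 fold change over the square root of F. Correlations used log2 CPM (prior count 2) and 100000 permutations. These shuffled the values left after subtraction over all pigs, across groups and pools. The permutation p values of all correlations, those with marker scores and other genes included, therefore tend to be too small. Depths of 15.3 to 31.6 M counts limit precision mainly for low genes such as ME1. The scripts were tested on simulated data. Alternatives varied pool, libraries, scaling, filters, DESeq2 1.42.0, limma 3.58.1 and 2 surrogate variables (sva 3.50.0). Members and lists were chosen with earlier results of these data known. Of each list, the 2 genes with the smallest p in each comparison were named, and for FASN and SREBF1 the 5 genes most alike.

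Gene spans come from the RefSeq annotation of Sscrofa11.1, matched by symbol for 9 of 9 genes. No sequences and no transcript lengths were used here.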

Additional observations from a re-analysis of the deposited data

Results flagged for a closer look

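In 3 of 27 sets of pigs (9 genes in 3 groups) a single pig lay far from the rest of its group by Dixon's gap test, which chance does in about 1 in 20 sets. ACACA stood at 28.9 CPM in HHD_S 4, where the next pig of HHD_S had 38.0 CPM (gap over range 0.591, critical value 0.526). ACACB stood at 7.33 CPM in HHD_S 3, where the next pig had 4.22 CPM (0.648, critical value 0.526). ME1 stood at 3.19 CPM in WD_S 1, where the next pig of WD_S had 2.28 CPM (0.614, critical value 0.568).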

How the results depend on the processing

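The number of the 9 genes called was 0 in all 3 comparisons under each of 36 alternatives, 972 values in all, and the smallest adjusted p was 0.466 (SREBF1 in WD_S against HHD, limma). Of the 27 fold changes, 18 lay within 1 SE of 0, and 62 of their 648 alternative values changed sign. For the other 9, 0 of 324 did. Scaling by total counts moved the median fold change of all genes by -0.03 in WD_S against HHD_S.

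Over all genes, the count called in WD_S against HHD_S (0) was 2 without a pool term, 2 with a term for late animal numbers, 4 with DESeq2, 1 with limma, 2 with surrogate variables and 1 without HHD_S 3 and HHD_S 8, and 0 to 2 when leaving out 1 library. In HHD_S against HHD (0) it was 1 with DESeq2. In WD_S against HHD (1) it was 0 in pool 3 alone, 0 in pool 4 alone, 0 with total counts, 2 with the late number term (ABCG1 and FADS1), 2 with DESeq2 (the same genes) and 0 to 1 when leaving out 1 library. Of the 8 correlated pairs, 3 passed where group and pool were not subtracted. The r of ACACB with ACLY was 0.027 over all pigs, 0.403 in pool 3 alone and -0.829 in pool 4 alone. That of ME1 with FASN was -0.190 in pool 3 and 0.975 in pool 4, and that of ME1 with ACSS2 was 0.157 and 0.901. SREBF1 against the mean of the other genes had 0.747 in pool 4 alone. The causes were not tested.

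Pool 4 held 9 libraries, ME1 had as few as 26 reads, and sex could not be modelled. No paired analysis was possible because the labels number each pig separately and no animal or litter number is shared between groups. The library pools are shared between groups, and pool entered the model as a term.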

Other observations

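Single pigs stood out in several of the 9 genes at once. WD_S 3 was the lowest pig of its group in FASN (49.5 CPM), ACACA (36.1 CPM), ACLY (56.0 CPM), ACSS2 (62.7 CPM), AACS (5.22 CPM) and ACACB (3.05 CPM), at the highest enterocyte score of WD_S (0.47). WD_S 1 was the highest of its group in FASN (114 CPM), ACLY (78.8 CPM), MLXIPL (170 CPM), ME1 (3.19 CPM) and ACACB (4.61 CPM), at the lowest enterocyte score of WD_S (-0.24). Over 22 pigs, after subtraction of group and pool, r with that score was -0.816 for ACACB. It was 0.129 for FASN, 0.103 for ACACA, 0.173 for ACLY, 0.146 for ACSS2 and 0.0721 for AACS. For ME1 it was 0.305 and for MLXIPL -0.185, and apart from ACACB none of these passed. HHD_S 4 was the lowest of all 22 pigs in FASN (35.5 CPM), ACACA (28.9 CPM) and ACSS2 (53.9 CPM). Within HHD_S it was also the lowest in ACLY (54.7 CPM) and AACS (7.25 CPM), at an enterocyte score of 0.21. The crypt stem and dividing cell (-0.77), macrophage and dendritic cell (-0.71) and endothelial (-1.06) scores of HHD_S 4 were the lowest of its group. HHD_S 7 was the highest of all 22 pigs in ACLY (97.0 CPM) and AACS (13.8 CPM) and the lowest in MLXIPL (34.5 CPM). HHD_S 8 was the lowest of all in SREBF1 (16.4 CPM) and ME1 (1.40 CPM) and the highest of HHD_S in MLXIPL (95.3 CPM).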
